A study of Mus musculus with 12 samples.

Results

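NF-kB and inflammatory genes were followed in the mouse line A2C12, grown from a lung tumour of a C57BL/6 animal with 2 oncogene transgenes, c-myc and c-raf. The set is a list of 35 genes, taken by gene symbol and chosen with earlier results of these data known. Comparisons of the set with all genes are therefore not independent of these data. Where a gene had several probe sets, the one with the largest average across the arrays was used. Of the 35 genes, 33 had a probe set among 18194 measured genes. Nfkb1 and C3 were the others. The 33 genes comprise 6 of the IkB family and other brakes, 4 NF-kB subunits, 3 survival and signalling genes, 7 cytokines and growth factors, 7 chemokines, 2 adhesion molecules and 4 acute phase and prostaglandin genes.

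Transcripts were measured on 12 Affymetrix mouse arrays in 4 groups of 3 biological replicates. Side population (SP) cells, which pump out Hoechst dye, and the remaining non-SP cells were sorted from untreated A2C12 cells and from A2C12 cells exposed for 48 h to 100 µg/ml of a monoclonal antibody against mouse EpCAM (anti-EpCAM), a surface protein of epithelial cells. Before sorting by flow cytometry all cells took up the dye for 90 min at 5 µg/ml, and the gate was set with the pump inhibitor reserpine (50 µmol/l). All 4 groups thus come from 1 tumour line that carries both transgenes in every group, so no second tumour was measured. The labels number the replicates 1 to 3 in each group but do not say whether SP and non-SP cells of one number were sorted from the same dish. Their arrays deviated together, with correlations across all genes from 0.55 to 0.84, so both fractions that share a number and a treatment are called a culture here. Over the members alone the untreated pairs 1 to 3 correlated at 0.58, 0.88 and 0.14. The treated pairs 1 to 3 correlated at 0.95, 0.41 and 0.96 over the members. Whether such a pair shares a dish, a sort or a hybridization cannot be told apart. Untreated and treated arrays of one number did not deviate together and are not treated as pairs in the main tests.

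NF-kB is a family of transcription factor dimers held in the cytoplasm by IkB proteins. Signals from receptors such as those for tumour necrosis factor, interleukin 1 and bacterial products activate the IkB kinase complex, IkB is destroyed, and the dimers enter the nucleus and bind kappa-B sites. Their targets include cytokines, chemokines and adhesion molecules, and also the genes of their own brakes, so that the response shuts itself off. In lung epithelium and lung tumours the pathway is known for drawing in leukocytes and for keeping stressed cells alive.

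The stretches of 150 bases just upstream of the annotated start are shown for 7 members that carry the kappa-B consensus there, since 6 of them varied together between cultures (correlations with the mean of the other members over the 12 arrays, group means removed, from 0.79 to 0.99) and Nfkb2 did not (0.13). They are read 5′ to 3′ on the gene's own strand from RefSeq, build GRCm38.p6, with matches to the consensus on either strand in capitals.
Nfkbia: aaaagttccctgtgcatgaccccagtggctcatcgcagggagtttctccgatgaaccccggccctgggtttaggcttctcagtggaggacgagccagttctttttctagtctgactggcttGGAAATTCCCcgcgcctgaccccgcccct
Tnfaip3: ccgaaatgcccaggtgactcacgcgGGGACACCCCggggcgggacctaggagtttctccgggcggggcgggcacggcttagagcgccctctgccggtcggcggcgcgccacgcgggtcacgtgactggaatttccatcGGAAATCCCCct
Nfkb2: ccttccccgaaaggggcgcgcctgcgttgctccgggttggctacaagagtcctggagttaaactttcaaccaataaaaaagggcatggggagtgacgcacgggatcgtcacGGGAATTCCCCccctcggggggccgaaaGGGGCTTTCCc
Il6: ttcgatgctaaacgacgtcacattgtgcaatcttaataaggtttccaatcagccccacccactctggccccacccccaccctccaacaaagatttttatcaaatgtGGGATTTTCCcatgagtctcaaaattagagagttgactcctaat
Ccl20: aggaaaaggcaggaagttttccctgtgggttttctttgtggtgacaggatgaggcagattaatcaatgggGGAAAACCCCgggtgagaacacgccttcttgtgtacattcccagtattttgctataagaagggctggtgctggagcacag
Cxcl1: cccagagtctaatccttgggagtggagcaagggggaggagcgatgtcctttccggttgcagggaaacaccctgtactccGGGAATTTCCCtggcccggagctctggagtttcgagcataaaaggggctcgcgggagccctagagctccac
Cxcl2: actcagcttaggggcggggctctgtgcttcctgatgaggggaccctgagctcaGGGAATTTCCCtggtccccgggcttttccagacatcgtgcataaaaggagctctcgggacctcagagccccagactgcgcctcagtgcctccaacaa
The same stretch of the members with the widest ranges over the arrays holds no match, and is shown for comparison.
Icam1: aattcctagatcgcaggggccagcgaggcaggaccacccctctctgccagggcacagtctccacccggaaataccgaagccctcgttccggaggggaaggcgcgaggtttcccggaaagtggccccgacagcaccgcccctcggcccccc
Lcn2: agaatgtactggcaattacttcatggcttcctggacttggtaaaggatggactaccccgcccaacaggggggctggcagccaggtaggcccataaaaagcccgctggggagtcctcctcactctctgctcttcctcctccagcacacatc
The stretches lie at chr12:55492648-55492797 (minus strand) for Nfkbia, chr10:19015411-19015560 (minus strand) for Tnfaip3, chr19:46304587-46304736 (plus strand) for Nfkb2 and chr5:30012964-30013113 (plus strand) for Il6. Those of the chemokine genes lie at chr1:83116616-83116765 (plus strand) for Ccl20, chr5:90891095-90891244 (plus strand) for Cxcl1 and chr5:90903749-90903898 (plus strand) for Cxcl2. Those without a match lie at chr9:21015790-21015939 (plus strand) for Icam1 and chr2:32387740-32387889 (minus strand) for Lcn2.

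In Cxcl1 and Cxcl2 the capitals are overlapping matches on both strands that begin 71 and 97 bases before the start. The match of Il6 begins 44 bases before the start and that of Nfkbia 29. Within 250 bases upstream, 9 of the 25 members with a promoter window carried at least 1 match (36.0%). Of the 14453 measured genes with a window 772 did (5.34%). So did 1204 of all 27025 genes with a window (4.46%) and 3.9% of all windows of that length. The list was made of NF-kB and inflammatory genes, so its higher share is not independent of that choice. The 9 were Nfkbia, Nfkbie, Tnfaip3, Nfkb2, Rel, Il6, Ccl20, Cxcl1 and Cxcl2. A match is a description of letters and not a measured binding site.

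The members varied widely between arrays. In these sorted bulk samples, fewer cells of a type and less RNA per cell cannot be told apart. Values are RMA summaries on the log2 scale, so 1 unit is a 2-fold difference. The distance from the lowest to the highest of the 12 arrays had a median of 1.55 over the 33 members, against 0.85 over all genes. It passed 2 units for 11 members (33.3%) and for 1.46% of all genes. The widest ranges were 3.87 for Lcn2, which encodes the iron-siderophore binding protein lipocalin 2, 3.71 for Icam1, the ligand of leukocyte integrins, and 3.33 for Il6. These correspond to 14.6-fold, 13.1-fold and 10.1-fold. Ccl20, the chemokine ligand of CCR6, spanned 3.13, and the neutrophil chemokine Cxcl2 spanned 3.11. At the other end Ccl5, a chemokine for T cells, spanned 0.57 and Bcl3, an atypical nuclear IkB protein, 0.60. Set against the median gene of each array, 21 members lay above it on every array and 7 lay below it on every array (Rel, Il1a, Il1b, Tnf, Csf3, Ccl5 and Cxcl5), while Traf1, Ccl20, Cxcl2, Icam1 and Lcn2 crossed it.

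**Figure D1:**
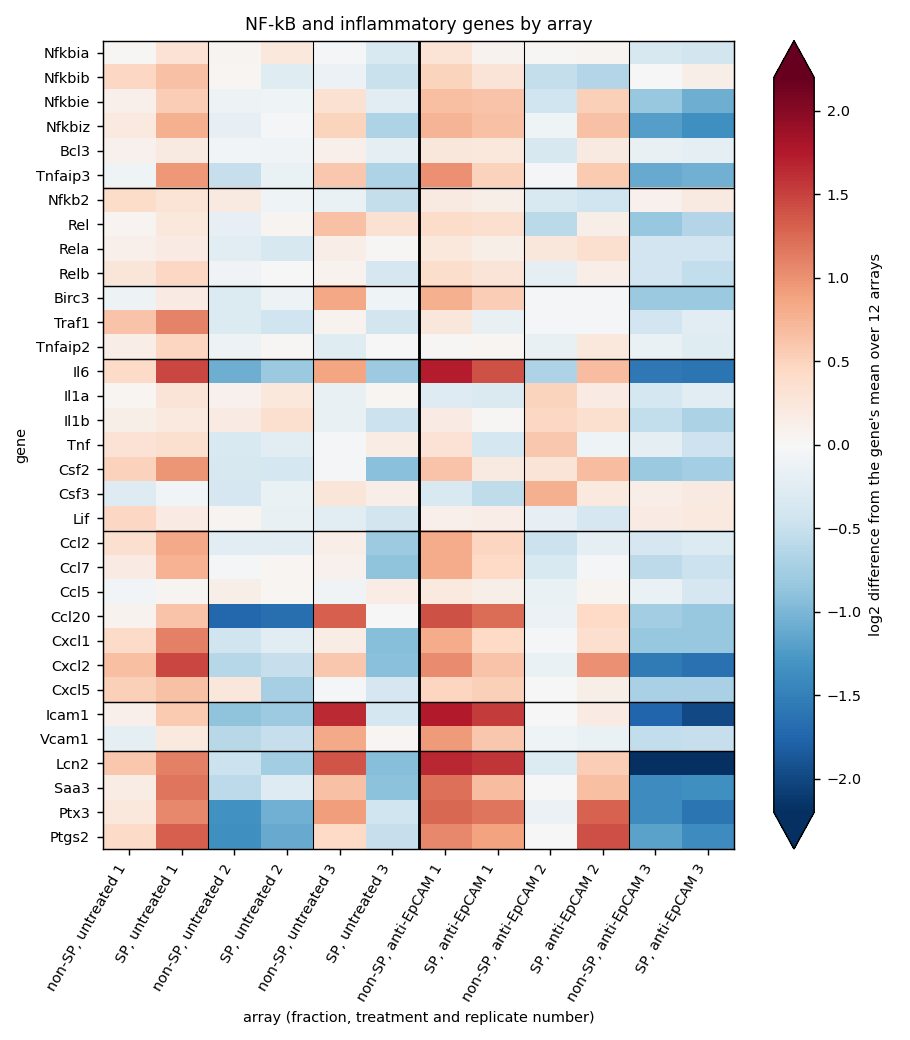
Each row is a gene and each column an array, coloured by the log2 difference from the gene's mean over the 12 arrays; thin vertical lines part the cultures, the thick line parts untreated from treated cells, and horizontal lines part the roles. Most rows are red in both arrays of anti-EpCAM culture 1 and blue in both arrays of anti-EpCAM culture 3, which had the lowest mean of the treated cultures for 28 of 33 members; colours stop at 2.2 units.

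The spread followed the cultures in part. Over the members, the fractions of untreated culture 3 and of anti-EpCAM culture 2 deviated together least, with correlations of 0.14 and 0.41. Arrays were joined into cultures because their deviations correlated in these same values, so the test between cultures is not independent of that choice. Of 33 members, 30 differed between cultures of one treatment in limma's moderated F test (Benjamini-Hochberg adjusted p under 0.05 over all genes), where 49.9% of all genes did. The exceptions were Bcl3 (adjusted p = 0.206), Tnfaip2 (adjusted p = 0.0829) and Ccl5 (adjusted p = 0.174). The SD between cultures had a median of 0.54 over the members and 0.24 over all genes, and the SD within cultures 0.30 and 0.15. Anti-EpCAM culture 1 had the highest mean of the treated cultures for 25 members, against 39.2% of all genes, and anti-EpCAM culture 3 the lowest for 28, against 37.4%. Untreated culture 1 was the highest of the untreated for 25 members, against 46.3% of all genes, and untreated culture 2 the lowest for 20, against 55.5%. With all cultures the test called 30 of 33 members and 9077 of 18194 genes. Without anti-EpCAM culture 1 the test called 18 members and 6241 genes, and without anti-EpCAM culture 3 it called 19 members and 9802 genes. Without anti-EpCAM culture 3 the share of members called thus lay close to the share of all genes called. With any 1 culture left out, 11 members stayed past the threshold each time: Nfkbib, Nfkb2, Rela, Il1b, Csf2, Lif, Ccl20, Cxcl5, Icam1, Ptx3 and Ptgs2. How many of all genes stayed past it each time was not counted, so this number has no background to be set against.

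The group of the IkB family and other brakes holds inhibitors of the pathway, and also the nuclear IkB proteins Nfkbiz and Bcl3. Nfkbia, the inhibitor IkB alpha, stood at 12.94, 12.98 and 12.89 in untreated non-SP cells of cultures 1, 2 and 3 and at 13.23, 13.15 and 12.58 in untreated SP cells. With the antibody it stood at 13.21, 12.94 and 12.57 in non-SP and at 12.99, 12.97 and 12.52 in SP cells. Both arrays of anti-EpCAM culture 3 were its lowest, and the groups overlapped. Its culture means differed 1.47-fold among treated cultures (adjusted p = 0.0484), and the call ended without anti-EpCAM culture 1 (0.103) or 3 (0.191). The 4 other Nfkbia probe sets differed between anti-EpCAM cultures 1 and 3 by 0.26 to 0.83, in the same direction.

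Tnfaip3, which encodes the ubiquitin-editing brake A20, moved further. It stood at 10.59, 10.18 and 11.27 in untreated non-SP cells and at 11.64, 10.54 and 10.01 in untreated SP cells. In treated cells the values were 11.69, 10.64 and 9.57 in non-SP and 11.19, 11.26 and 9.63 in SP cells. Anti-EpCAM culture 3 was again lowest in both fractions, 3.59-fold below anti-EpCAM culture 1 (adjusted p of the culture test = 0.0491, and 0.405 without anti-EpCAM culture 3). Nfkbiz, a nuclear IkB protein needed for a subset of targets such as Lcn2, was 3.92-fold higher in anti-EpCAM culture 1 than in 3, and Nfkbie, IkB epsilon, was 3.03-fold higher. The culture test gave adjusted p values of 0.0163 and 0.0199, and these were 0.308 and 0.167 without anti-EpCAM culture 3. Nfkbib, IkB beta, differed between cultures (adjusted p = 0.00508) in another order, with treated culture means of 9.53, 8.55 and 9.21.

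Among the subunits, Rela, the main activating subunit p65, stood at 10.67, 10.32 and 10.70 in untreated non-SP cells and at 10.73, 10.20 and 10.57 in untreated SP cells. Under antibody Rela stood at 10.79, 10.81 and 10.14 in non-SP and at 10.68, 10.91 and 10.14 in SP cells. The fractions of a culture lay close together, with a within-culture SD of 0.07 against 0.32 between cultures (adjusted p = 0.00614). Relb and Rel, which encode further activating subunits, were 1.76-fold and 2.17-fold higher in anti-EpCAM culture 1 than in 3 (adjusted p of the culture test 0.022 and 0.0132). Nfkb2, whose product is cut to the p52 subunit of the slower pathway, differed between cultures too (adjusted p = 0.00637) but stood at 8.75, 8.20 and 8.73 in treated cultures 1, 2 and 3, so that cultures 1 and 3 were 0.02 apart. Of the survival and signalling genes, Birc3, an inhibitor of apoptosis and ubiquitin ligase, was 2.79-fold higher in anti-EpCAM culture 1 than in 3. By the probe set used, Traf1, a receptor adaptor, differed more among untreated cultures, 2.33-fold, than among treated ones, 1.30-fold. Its other probe set separated anti-EpCAM cultures 1 and 3 by 1.28 log2 units. Tnfaip2 kept within 0.75 over all 12 arrays.

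Il6, the cytokine that drives the acute phase response, had the widest range of the cytokines. It stood at 10.00, 8.51 and 10.46 in untreated non-SP cells and at 11.05, 8.76 and 8.78 in untreated SP cells. After antibody treatment Il6 stood at 11.31, 8.91 and 8.02 in non-SP and at 10.99, 10.26 and 7.98 in SP cells. Anti-EpCAM culture 1 was high and anti-EpCAM culture 3 low in both fractions, 8.87-fold apart (adjusted p of the culture test = 0.0126, and 0.0558 without anti-EpCAM culture 1). Csf2, the granulocyte-macrophage growth factor, differed 2.42-fold among treated and 2.32-fold among untreated cultures (adjusted p = 0.0103), with untreated culture 1 the highest of all 6 at 9.96. The other cytokines followed this order less. Csf3, the granulocyte growth factor, was lower in anti-EpCAM culture 1 than in 3 by a log2 difference of -0.62, and Lif, Il1a and Nfkb2 differed between these cultures by -0.07, 0.02 and 0.02. Il1b, an interleukin 1 with a mean level of 5.25, was highest in anti-EpCAM culture 2 at 5.65 and lowest in anti-EpCAM culture 3 at 4.63 (adjusted p = 0.00447).

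Of the chemokines, Cxcl1, which draws in neutrophils, stood at 12.14, 11.29 and 11.89 in untreated non-SP cells and at 12.83, 11.49 and 10.78 in untreated SP cells. Treated cells had Cxcl1 at 12.53, 11.68 and 10.88 in non-SP and at 12.16, 12.10 and 10.88 in SP cells. Untreated culture 1 and anti-EpCAM culture 1 were high in both fractions, while untreated culture 3 was high only in non-SP cells. Cxcl2 differed 5.39-fold and Ccl20 4.34-fold between anti-EpCAM cultures 1 and 3 (adjusted p of the culture test 0.0145 and 0.00459). Ccl20 also separated the untreated cultures, at means of 7.82, 5.77 and 8.13, a 5.11-fold span. Ccl2 and Ccl7, monocyte chemokines, were highest in the cultures numbered 1 of both treatments, at 13.33 and 13.39 for Ccl2. Cxcl5 lay below the median gene on every array, with both arrays of anti-EpCAM culture 3 at 3.31.

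Of the 5 members with a range over 3 units, Icam1 is an adhesion molecule and Lcn2 an acute phase gene. Icam1 stood at 8.58, 7.59 and 10.10 in untreated non-SP cells and at 9.04, 7.67 and 8.08 in untreated SP cells. Antibody-treated cells had Icam1 at 10.20, 8.47 and 6.72 in non-SP and at 10.01, 8.65 and 6.49 in SP cells. The treated cultures kept one order in both fractions, with culture 1 11.4-fold above culture 3 (adjusted p of the culture test = 0.00576, at most 0.0353 with 1 culture left out). Vcam1, the ligand of integrin VLA-4, was 2.43-fold higher in anti-EpCAM culture 1 than in 3. Lcn2 stood at 7.57, 6.49 and 8.35 in untreated non-SP cells and at 8.08, 6.20 and 6.02 in untreated SP cells. In treated cells Lcn2 stood at 8.63, 6.67 and 4.78 in non-SP and at 8.55, 7.51 and 4.76 in SP cells, a 14.1-fold step between cultures 1 and 3 (adjusted p = 0.0068, and 0.0589 without anti-EpCAM culture 3). Ptgs2, the inducible cyclooxygenase of prostaglandin synthesis, stood at 11.40, 9.63 and 11.43 in untreated non-SP cells and at 12.30, 9.87 and 10.47 in untreated SP cells. The treated arrays had Ptgs2 at 12.03, 10.98 and 9.80 in non-SP and at 11.87, 12.40 and 9.59 in SP cells. Untreated culture 2 and anti-EpCAM culture 3 were low in both fractions (adjusted p of the culture test = 0.00881). Ptx3, a soluble pattern recognition protein, and Saa3, an acute phase serum amyloid, were 6.56-fold and 4.97-fold higher in anti-EpCAM culture 1 than in 3.

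**Figure D2:**
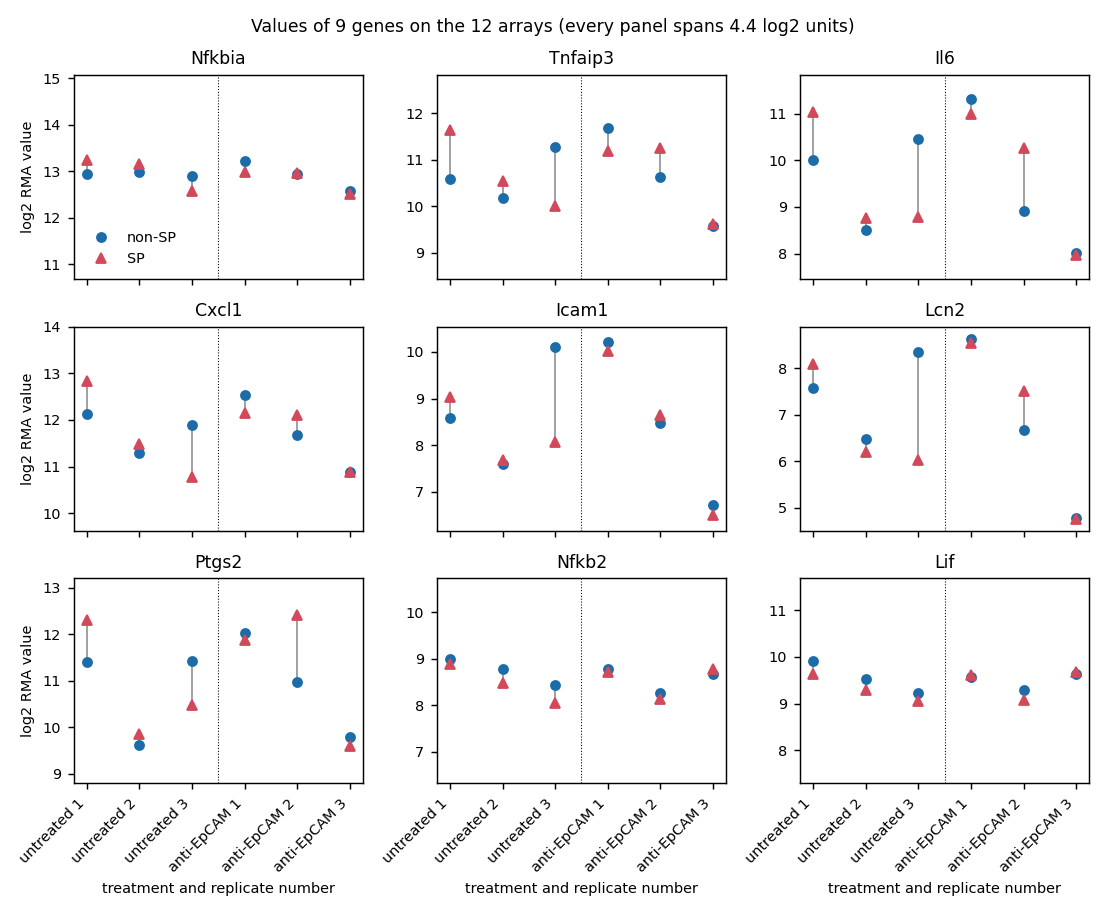
Log2 RMA values (vertical axis) of 9 members by treatment and replicate number; circles are non-SP and triangles SP arrays, joined by a line within a culture. Icam1, Il6 and Lcn2 step down from anti-EpCAM culture 1 to 3 in both fractions, while Nfkb2 and Lif stay within 0.94 and 0.86 over all arrays.

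Seen over the whole set, both arrays of anti-EpCAM culture 1 lay above both arrays of anti-EpCAM culture 3 for 28 of 33 members (84.8%), and for 40.1% of all genes. The median log2 difference between these cultures was 1.15 for the members and 0.06 for all genes. The exceptions were Nfkb2, Il1a, Tnf, Csf3 and Lif. These cultures were picked for their values, so the counts are a description with no test. By role, the median deviation from the treated mean in anti-EpCAM culture 3 ran from -0.23 for the survival genes to -1.51 for the acute phase and prostaglandin genes. The 3' minus 5' signal of the actin control probe sets, which grows as RNA breaks down, was 0.21 and 0.23 in the arrays of anti-EpCAM culture 1 and 0.26 and 0.18 in those of culture 3. It was 0.89 and 1.03 in anti-EpCAM culture 2, which was the highest treated culture for 7 members and the lowest for 4. Without anti-EpCAM culture 2 the culture test called 29 members. With all cultures it called 30 members and 49.9% of all genes. The part of RNA quality in these calls was not tested.

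Within a culture, SP and non-SP cells differed in both directions. In untreated culture 1, 31 of 33 members were higher in the SP array, with a median log2 difference of 0.41 against 0.02 over all genes. In untreated culture 3, 29 members were lower in the SP array, with a median of -0.57 against 0.00 over all genes. There 10 members were lower by over 1 unit, where 0.544% of all genes differed by that much in either direction. Lcn2 differed there by -2.32, Icam1 by -2.02 and Il6 by -1.68. In untreated culture 2 the median was 0.10, with 22 members higher and 11 lower. Among treated cells, 30 members were lower in the SP array of culture 1, at a median of -0.17 against -0.03 over all genes. In culture 2, 24 were higher, at a median of 0.29 against -0.10 over all genes. Ptx3 and Ptgs2 differed there by 1.42 each and Il6 by 1.35, where 2.43% of all genes differed by over 1 unit. In culture 3, 15 were higher and 17 lower, at a median of -0.00 against 0.01 over all genes. The shares of all genes higher or lower in the SP array were not counted. Each culture has 1 array of each fraction, so these differences have no test of their own. The SP array of untreated culture 3 had an actin 3' minus 5' signal of 0.73 against 0.40 in its non-SP array. In anti-EpCAM culture 2 the signal was 1.03 in the SP and 0.89 in the non-SP array. The part of RNA quality in the differences was not tested. The other Vcam1, Cxcl1, Ptgs2 and Tnfaip3 probe sets gave the same signs in untreated cultures 1 and 3. Other probe sets of Birc3, Nfkbib, Ptx3 and Lif, with means of 4.94, 4.99, 5.34 and 5.08, correlated at -0.24, 0.20, 0.34 and -0.25 with the ones used, and that of Traf1 separated anti-EpCAM cultures 1 and 3 by 1.28 where the one used gave 0.38.

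**Figure D3:**
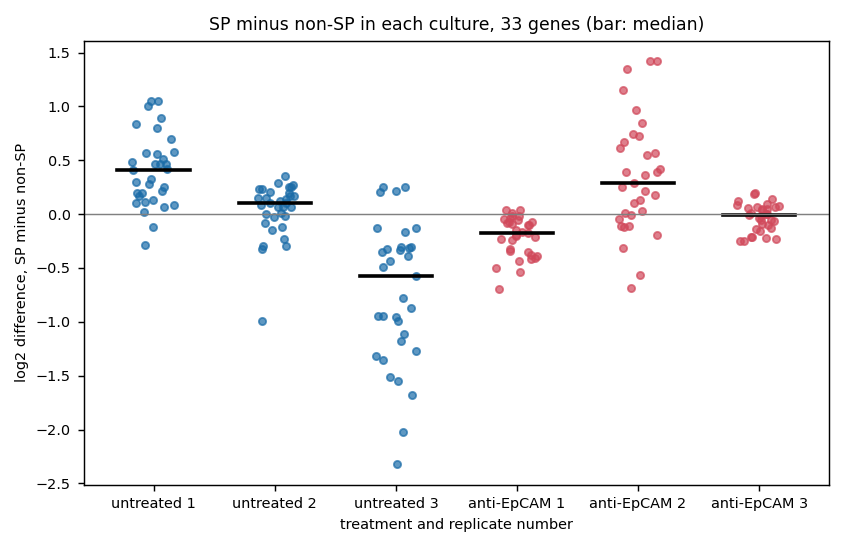
Log2 difference between the SP and the non-SP array (vertical axis) of each culture; each point is 1 of 33 members and the bar is their median. The medians are 0.41, 0.10 and -0.57 in untreated cultures 1 to 3 and -0.17, 0.29 and -0.00 in treated cultures 1 to 3.

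Compared by group, without pairing the fractions of a culture, no member passed the test for a difference between SP and non-SP cells. The fit with each culture as a block, which has narrower intervals, is given further below. In untreated cells 0 of 33 passed an adjusted p under 0.05 in limma's moderated test (0% of all genes), 0 passed an unadjusted p under 0.05 (0.022% of all genes), and the arrays of the groups overlapped for all 33 (2.37% of all genes did not overlap). The median log2 difference was -0.08, against 0.01 over all genes, with 9 members above 0. Lcn2 differed by -0.70, with a 95% interval from -2.89 to 1.49, and Icam1 by -0.49, from -2.52 to 1.54. Nfkbia differed by 0.05, from -0.42 to 0.52. The median turned to 0.11 without the SP array of untreated culture 3 and stood at -0.47 without that of culture 1.

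In treated cells 0 members passed the adjusted threshold (0% of all genes) and 1 of 33, Tnf, the cytokine that is itself a strong activator of the pathway, passed the unadjusted one (0.698% of all genes). No member was free of overlap (2.35% of all genes were). Tnf stood at 6.55, 6.83 and 6.03 in treated non-SP cells and at 5.85, 6.15 and 5.78 in treated SP cells of cultures 1, 2 and 3. It was lower in the SP array of each culture, though the groups overlapped, and its level lay below the median gene on every array. The log2 difference was -0.55 ± 0.24 (SE), with an adjusted p of 0.99991 in limma. The members' median was 0.01, against -0.03 over all genes, and moved to -0.16 without the SP array of culture 1 and to 0.33 without the non-SP array of culture 1.

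The antibody comparison asks whether anti-EpCAM changed the set. In non-SP cells 0 of 33 members passed the adjusted threshold (0% of all genes) and 0 the unadjusted one (3.22% of all genes), and all 33 overlapped (7.8% of all genes did not). In SP cells the counts were again 0 adjusted (0%) and 0 unadjusted (4.59% of all genes), with overlap for all 33 (8.47% did not). The members' medians were -0.09 in non-SP and -0.00 in SP cells, against -0.10 and -0.12 over all genes. With arrays centred on their medians they were 0.06 and 0.12, so no direction is given. Il6 differed by -0.24 in non-SP cells, with a 95% interval from -2.26 to 1.77, and by 0.21 in SP cells, from -1.80 to 2.22. Rela differed by 0.02, from -0.51 to 0.54, and by 0.07, from -0.46 to 0.60. The largest difference of a subunit was that of Rel in non-SP cells, -0.52, from -1.24 to 0.20.

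**Figure D4:**
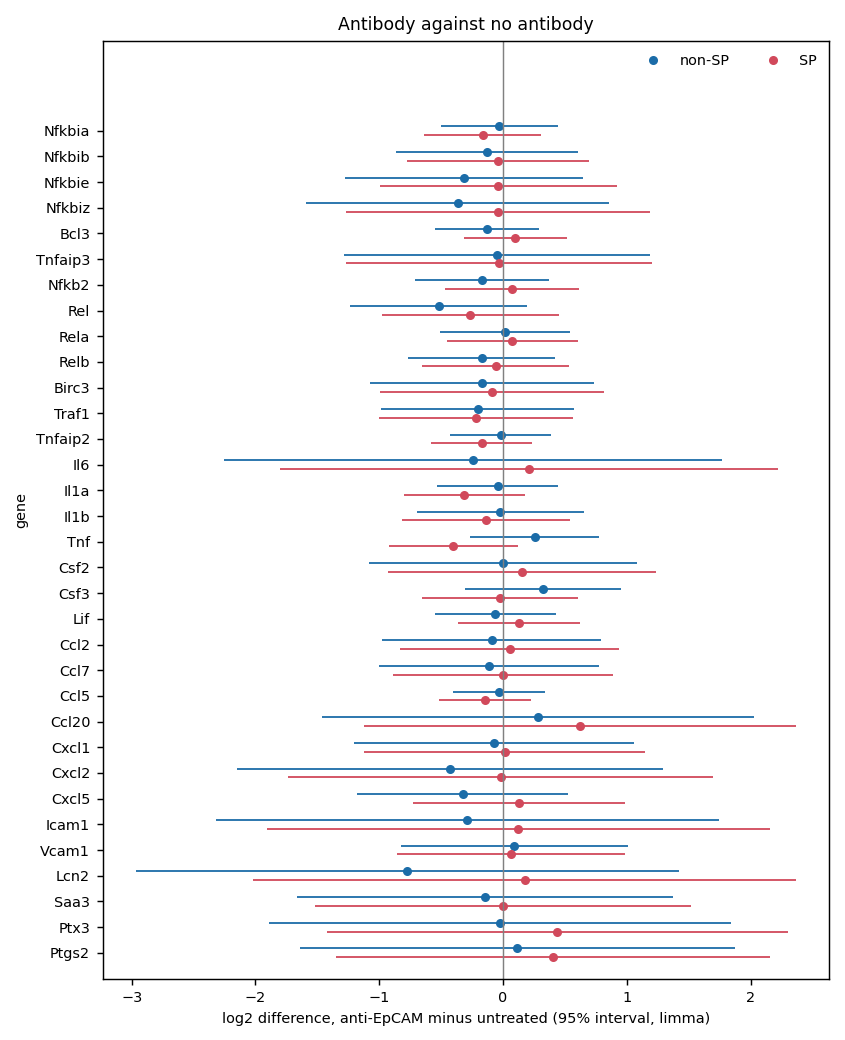
Log2 difference between anti-EpCAM treated and untreated cells (horizontal axis) with its 95% interval from limma, for each member in non-SP (blue) and SP cells (red). Every interval includes 0, and that of Lcn2 in non-SP cells runs from -2.97 to 1.42.

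The intervals of the members were wider than those of most genes, with a median half-width of 0.89 log2 units against 0.46 over all genes. For the interaction, which asks whether the fractions differ by treatment, the half-widths were 1.26 and 0.65. There 0 members passed the adjusted (0% of all genes) or the unadjusted threshold (0.236% of all genes), and the median was 0.14 against -0.03 over all genes. With each culture as a block the half-width for the fractions fell to 0.46 for members and 0.27 for all genes, and 0 members passed. Tnf then had the smallest unadjusted p of any member, 0.00114 for the fractions in treated cells and 0.00305 for the interaction (adjusted p = 0.628 and 0.767 in limma), in contrasts where 1311 and 1003 of all genes had an unadjusted p under 0.05. In untreated cells Lif and Nfkb2, both lower in SP cells, had unadjusted p of 0.0411 and 0.0249 (adjusted p = 0.99981 each in limma), where 305 of all genes were under 0.05.

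The members varied together. After the group means were removed, the deviations of 21 of 33 members correlated at 0.8 or more with the mean of the other members over the 12 arrays (63.6%), against 6.45% of the other genes. The median correlation was 0.84 for members and 0.19 for other genes. Il6 reached 0.99, Saa3 0.99, Lcn2 0.98, Cxcl2 0.98 and Tnfaip3 0.97. Csf3 was at -0.32, Lif at 0.03, Il1a at 0.11 and Nfkb2 at 0.13. The 12 arrays form only 6 cultures as defined above, so these values describe the arrays and carry no p.

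**Figure D5:**
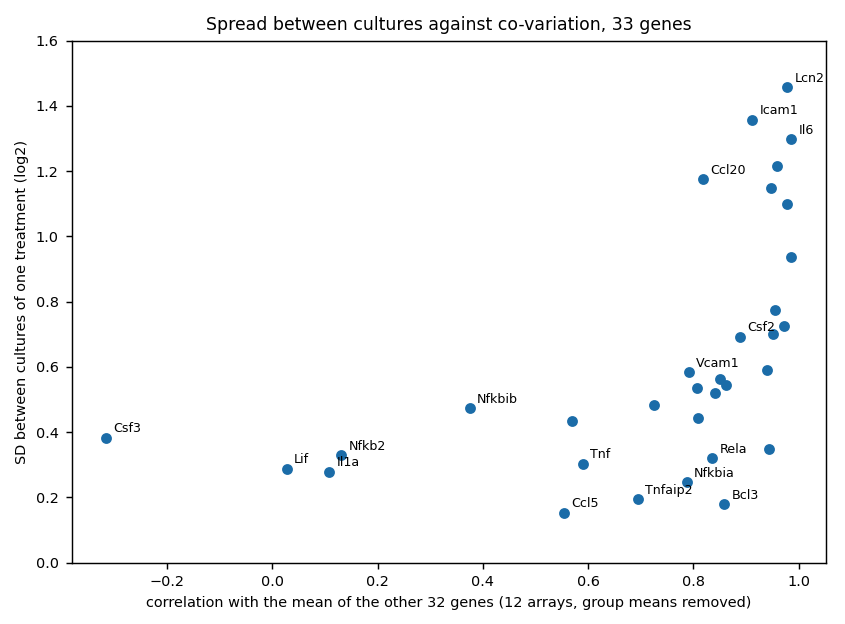
SD between cultures of one treatment in log2 units (vertical axis) against the correlation with the mean of the other 32 members (horizontal axis), 1 point per member. Lcn2, Icam1 and Il6 stand at the upper right, and Csf3, Lif, Il1a and Nfkb2 at the left with SDs of 0.28 to 0.38.

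Other genes of the pathway were counted from lists of receptors and adaptors, of the kinase complex and its regulators, and of further targets. None of the 17 receptors, 15 kinase genes and 25 targets passed the adjusted or the unadjusted threshold in any of the 5 contrasts. Between cultures, 11 of 17, 7 of 15 and 18 of 25 passed, where 49.9% of all genes did. The median correlation with the members was 0.29 for the receptors, 0.50 for the kinase genes and 0.55 for the targets. Il1r1, the interleukin 1 receptor, correlated with the members at 0.94 and stood between 8.18 and 9.32. Traf2, an adaptor of tumour necrosis factor receptors, correlated at 0.91 and Tnip1, a partner of A20, at 0.88, while Ikbkb, the main activating kinase, correlated at 0.10 and Ikbkg, the scaffold of the complex, at -0.14. Among targets Irf1 correlated at 0.98, Csf1 at 0.92 and Cxcl10 at 0.89, and Il1rn, the interleukin 1 receptor antagonist, at -0.60. Of 14 acute phase and IL-6 pathway genes 9 passed between cultures, with Socs3, the feedback inhibitor of that pathway, at a correlation of 0.76. Of 8 immediate early genes of stress and handling 6 passed, with Fos at 0.21 and Atf3 at 0.84.

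Markers of other cells were read beside these results, and those outside the fixed names (Lyz2, Cd14, Cd3e, Cd79a, Lum, Col1a2, Dcn, Tek, Cdh5, Nkx2-1, Krt19, Sftpb and Cdh1) were named after their values were seen. Of 9 leukocyte markers 5 lay below the median gene on every array, among them Ptprc (CD45) at 3.15 to 3.71. Csf1r, at 9.17 to 10.50, and Cd14, at 8.57 to 9.39, lay above it on every array, while Cd68 and Cd3e crossed it. The list's mean ran from 6.20 to 6.52 in untreated and from 6.04 to 6.38 in treated non-SP cells, and from 6.18 to 6.51 and from 6.11 to 6.22 in SP cells. It was lowest in the arrays of anti-EpCAM culture 3, at 6.04 and 6.11. Correlations of this list with the members ran from -0.53 for Cd79a to 0.90 for Lyz2, with 7 of 9 above 0, Csf1r at 0.74, Cd68 at 0.58 and Ptprc at 0.18. Of 7 fibroblast markers only Lum lay below the median gene on every array. That list's mean ran from 10.01 to 10.18 in untreated and from 9.79 to 10.07 in treated non-SP cells, and from 9.78 to 10.08 and from 9.67 to 10.24 in SP cells. Its correlations ran from -0.81 for Col1a2 to 0.86 for Dcn, with 5 of 7 below 0 and Col1a1 at -0.56. Of 4 endothelial markers 3, Pecam1 among them, lay below the median gene, with list means of 4.99 to 5.19 and 5.10 to 5.27 in non-SP and of 5.03 to 5.35 and 4.96 to 5.08 in SP cells. Its correlations ran from -0.39 for Tek to 0.73 for Cdh5. Of 8 epithelial markers Nkx2-1 and Sftpc lay below the median gene on every array. Epcam, Krt8, Krt19 and Sftpb lay above it on every array, while Cdh1 and Krt18 crossed it. The epithelial mean ran from 7.22 to 7.80 and from 7.32 to 7.56 in non-SP cells and from 7.19 to 7.74 and from 7.43 to 7.64 in SP cells. Its correlations ran from -0.72 for Sftpc to 0.89 for Krt18, with 6 of 8 above 0 and Epcam at -0.28. The part of these markers in the differences between cultures was not tested.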

How the data were processed

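Log2 values of the 12 arrays were used as deposited by the authors, who summarised them by RMA per the submitters' processing notes (software and version: not given in the sources consulted). RNA input was 200 ng per the labels' protocols. Probe-level files were not used here. Of 45101 probe sets, 34958 carried 1 symbol in the 2016 platform annotation, 932 several and 9211 none; the one with the highest mean stood for each of 18194 genes. Array medians ran from 5.72 to 6.06, and no filter was applied.

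Differences were tested two-sided with limma 3.58.1 under R 4.3.3 (lmFit and eBayes, 4 group means, 8 residual degrees of freedom), adjusted by Benjamini-Hochberg over all genes at a threshold of 0.05. Differences between cultures were tested by the moderated F over 4 contrasts within treatment, with fraction in the model and 4 residual degrees of freedom. The replicate block was checked: SP and non-SP deviations from the group means correlated at 0.66, 0.84 and 0.55 for untreated replicates 1 to 3, at 0.75, 0.62 and 0.56 for treated ones, and at -0.38 to -0.01 between treatments, so the number pairs the fractions only. The procedure was tested on simulated data.

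Named genes are the listed members, the fixed genes of the other lists and markers. The members and lists were chosen with earlier results of these data known. Promoter windows are from RefSeq (GRCm38.p6), for 25 of 33 members. The plots used Python 3.11.15, pandas 2.3.3, numpy 2.4.6 and matplotlib 3.10.9. Alternatives were other scalings, the mean of all probe sets, a minimum mean of 5, an intensity trend, the replicate block, and each array, each culture and both arrays of anti-EpCAM replicate 2 left out.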

Additional observations from a re-analysis of the deposited data

Results flagged for a closer look

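The difference between fractions in Tnf had opposite signs in the treatments. Tnf was higher in the SP array of each untreated culture, by 0.02, 0.10 and 0.21 log2 units, and lower in the SP array of each treated culture, by differences of -0.70, -0.69 and -0.25. The interaction was -0.66 ± 0.34 (SE), and it did not pass in limma (adjusted p = 0.99995). With each culture as a block the adjusted p was 0.767 in limma. The mean of Tnf over the 12 arrays was 6.23, and each value lay below the median gene of its array.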

How the results depend on the processing

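In each of the 5 contrasts, 0 members and 0 genes passed under every alternative run, the replicate block among them. For the fractions and the interaction that block was the culture. For the antibody it was the replicate number across treatments, although untreated and treated arrays of one number did not deviate together. At an unadjusted p under 0.05 the culture block gave 305 and 1311 genes for the fractions without and with antibody and 1003 for the interaction. The block by number across treatments gave 930 and 1158 genes for the antibody in non-SP and SP cells. Between cultures, the test called 30 members and 9077 genes. With 1 culture left out it called 18 to 30 members and 4736 to 9802 genes. The fewest members were called without anti-EpCAM replicate 1 (18) and without anti-EpCAM replicate 3 (19), and the fewest genes without untreated replicate 2 (4736, with 25 members). Centring each array on its median gave 25 members and 8034 genes, and a further quantile normalization 28 and 8156. With 3 replicates a group, the intervals are wide, and the members' signs in the uncalled contrasts turned with the array left out.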

Other observations

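Outside the list, the genes whose deviations followed the members most closely among those with a range over 2 log2 units were named after their values were seen. Gch1, which starts the synthesis of tetrahydrobiopterin, correlated with the members' mean at 0.99 and ran from 6.26 to 8.65. Fmnl2, a formin of actin filaments, correlated at 0.97, and Mmp10, a matrix metalloproteinase, at 0.96. Lcp1 correlated at 0.96 and ran from 3.57 to 7.67, and Cd53 correlated at 0.94 and ran from 5.17 to 7.93. Further genes with correlations between those of Mmp10 and Cd53 are not named here. Mmp13, the collagenase in the list of further targets, correlated at 0.95 and ran from 4.18 to 9.41, with its lowest values in anti-EpCAM culture 3 and its highest in the SP array of anti-EpCAM culture 2. These correlations are over 12 arrays of 6 cultures and are descriptions.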
